A study of Mus musculus with 6 samples.

Results

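The 10 genes described here are imprinted genes that act on growth, H19, Meg3, Dlk1, Peg3, Mest, Grb10, Plagl1, Ndn, Cdkn1c and Rian. They were picked by gene name and not by a cut on measured values, but with earlier results of these data known. All 10 were found among the 34745 genes of the count table. RNA was sequenced from WT primary mouse renal fibroblasts, the connective tissue cells of the kidney, isolated by digestion and kept in fibroblast medium. In 3 libraries the fibroblasts were cultured alone, with no treatment. In the other 3 they were cocultured for 24 h beneath an insert with 0.4 μm pores that held Th17 cells, the interleukin-17-producing helper T cells, which the study had differentiated in vitro from CD4+ T cells of mouse spleen. Medium but no cell surface was shared, and only the fibroblasts were collected. The age of the mice was not given in the sources used here. The sources did not state if replicate libraries were separate cultures or animals, so each SD, SE and p describes the spread between these libraries, which may be technical.

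A gene is imprinted when only the copy inherited from 1 parent is transcribed, a choice laid down as DNA methylation in the germ line. Imprinted genes often sit in clusters, called domains, that share a control region, and several of them are abundant in the embryo and placenta and fall after birth. As background, paternally expressed genes of this kind often favour growth and maternally expressed ones often restrain it. The counts sum both parental copies, so which allele gave the transcripts was not measured here.

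H19 and Meg3 are long noncoding RNAs, and their annotated exons on mouse build GRCm38.p6 hold microRNA hairpins. The mature sequences, from RefSeq, are shown because a count of the host RNA is a count of the transcript these microRNAs are cut from. Capitals mark the seed, the bases at positions 2 to 8 that pair with a target. Mature microRNAs were not measured, and no seed occurred in more than 1 of these sequences.
mmu-miR-675-5p (H19): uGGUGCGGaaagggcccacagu
mmu-miR-675-3p (H19): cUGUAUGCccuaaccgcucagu
mmu-miR-1906 (Meg3): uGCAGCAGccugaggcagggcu
mmu-miR-770-5p (Meg3): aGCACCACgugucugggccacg
mmu-miR-770-3p (Meg3): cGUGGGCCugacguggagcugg
Introns of Rian held hairpins that give 6 mature microRNAs, and an intron of Mest held 1 that gives 2. The region between Dlk1 and Dio3 held 58 hairpins, 54 of them on the strand of Meg3.

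Imprints are carried by methylated CpG, so the sequence before a start site is shown for Meg3, Plagl1 and Peg3, with each CpG in capitals. These are a gene with a small fall, a gene with a large fall and the gene that was higher. All are from RefSeq or the GRCm38.p6 genome, on the strand of the gene. Those of Meg3 and Plagl1 lie before a RefSeq start, and that of Plagl1 is trimmed where an annotated untranslated region begins. The RefSeq start used for Plagl1 lies inside the annotated gene, which begins at chr10:13060504.
Meg3, chr12:109540746-109540995, + strand, 10 CpG: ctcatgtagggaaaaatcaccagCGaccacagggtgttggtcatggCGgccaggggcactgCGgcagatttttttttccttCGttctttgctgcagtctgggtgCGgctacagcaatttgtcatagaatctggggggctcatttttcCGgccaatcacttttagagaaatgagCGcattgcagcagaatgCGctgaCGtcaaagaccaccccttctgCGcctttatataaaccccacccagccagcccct
Plagl1, chr10:13090582-13090787, + strand, 15 CpG: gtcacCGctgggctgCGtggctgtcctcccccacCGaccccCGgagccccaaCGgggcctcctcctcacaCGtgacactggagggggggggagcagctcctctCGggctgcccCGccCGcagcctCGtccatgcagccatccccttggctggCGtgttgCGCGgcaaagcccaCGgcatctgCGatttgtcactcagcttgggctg
Between Peg3 and Usp29, chr7:6730432-6730577, - strand, 5 CpG: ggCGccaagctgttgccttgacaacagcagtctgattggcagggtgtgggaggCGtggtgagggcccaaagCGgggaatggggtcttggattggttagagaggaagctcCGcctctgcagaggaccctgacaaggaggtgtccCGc
Of the 10 genes, 8 had an entry among the 27025 promoters, H19 and Cdkn1c being the others. In the 250 bases before the start, 6 of the 8 had more CpG than the median promoter, which had 5, from 7 in Mest to 40 in Grb10 (percentile 98.9). Mest had 3 entries and Grb10 and Meg3 had 2 each, and the start nearest the annotated 5' end of the gene was used. Whether that start is the imprinted one was not examined. Rian had 0. The letters TGCCGC, the core of the site that the imprint-protecting zinc finger protein ZFP57 binds when methylated, were found on either strand in Meg3 and Plagl1, and in 8.58% of all promoters. The letters AAGATGGC, the core of the YY1 site, were in none of the 8 windows and in 1.58% of all promoters, and TATAAA was in Meg3 and in 12.9% of all promoters. No matches of different motifs overlapped in these windows, and CpG methylation was not measured.

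The libraries were of similar depth, with total counts between 12050529 and 13209581, and the floor of 3 counts lay between 0.223 and 0.254 CPM, the count as a share of the TMM-scaled library total on a common scale. Libraries of the same group differed by a chi-square statistic per gene of at least 6.38, and libraries of different groups by at least 79.9, so no library was a copy of another. Fibroblast markers summed to between 46900 and 49000 CPM in the lone libraries and between 23100 and 26300 CPM after coculture, with 10 of 12 lower and Dcn higher. Markers of macrophages summed to 58.2 to 61.4 CPM in the lone libraries and 19.9 to 21.1 CPM after coculture. Of 8 such markers, 6 were tested and 5 were lower, where 20.0% of all genes tested were lower. Adgre1 and Ptprc, at 0 counts in the cocultured libraries, passed the filter on low counts through the lone group alone. These 2 could thus enter only as lower genes. Markers of endothelium summed to 6.79 to 7.52 CPM in the lone libraries and 1.6 to 2.75 CPM after coculture. Of the 4, only Kdr was called lower, from a mean of 5.55 to 0.126 CPM. It too passed the filter through the lone group alone. Pecam1 went from 1.24 to 1.32 CPM and was not called. Tek went from 0.215 to 0.615 CPM and Cdh5 from 0.233 to 0.104 CPM, both too low to be tested. T cell markers summed to 5.82 to 8.69 CPM in the lone libraries and 4.79 to 5.58 CPM after coculture. Cd3d, Cd2, Il17a and Il17f had 0 counts in all 6 libraries. Of the 10, only Lck and Trac were tested. Lck had 49, 68 and 59 counts alone and 33, 34 and 23 after coculture and was called lower (edgeR adjusted p = 0.00755). Trac had 20, 40 and 38 counts alone and 41, 27 and 38 after coculture and was not called. Epithelial markers summed to at most 2.69 CPM. The part of these markers in the results that follow was not tested.

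Most of these imprinted genes were lower in fibroblasts cocultured with Th17 cells. In edgeR's quasi-likelihood test, 7 of the 10 were lower with an adjusted p below 0.05, 1 was higher and 2 did not pass. Over all 13088 genes tested, 37.1% passed, 20.0% lower and 17.1% higher. Past a 2-fold change as well, H19, Plagl1 and Dlk1 were lower and none was higher, where 7.78% of all genes were lower and 3.87% higher. Log2 changes are log2 fold changes, cocultured over lone, as fitted by edgeR. Their median over the 10 genes was −0.58, and that of all genes tested was 0. All 10 passed the filter on low counts, Dlk1 through the lone group alone, so Dlk1 could enter only as a lower gene. It is counted among the 7 lower genes and those past 2-fold, and it enters the median. With at least 10 counts required in every library, a setting in which Dlk1 has no value, the median was −0.42. H19, Meg3, Grb10, Plagl1 and Cdkn1c passed under all 14 alternative settings, while Dlk1, Peg3 and Rian did not. On the scale of log2(FPKM + 1), which shrinks changes of low genes, limma gave −2.01 for H19, −1.05 for Plagl1, −0.43 for Cdkn1c and −0.05 for Dlk1. In bulk RNA, fewer cells that express a gene and less of its RNA per cell cannot be told apart.

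**Figure D1:**
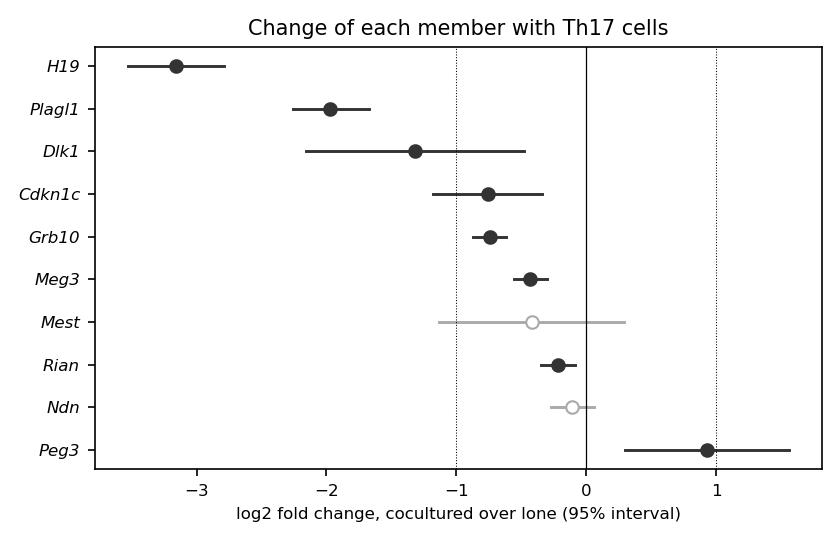
Log2 fold change of each gene, cocultured over lone (horizontal axis), with its 95% interval as a line. Filled points have an adjusted p below 0.05 and dotted lines mark a 2-fold change. The points run from −3.16 for H19 to 0.93 for Peg3, and the intervals of Mest and Ndn cross 0.

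Per kilobase of annotated exon, the levels of the genes spanned a wide range. In the lone libraries Grb10 was the most abundant at 66.9 ± 1.24 CPM per kilobase (SD, n = 3), followed by Meg3, Rian, Ndn, H19, Plagl1, Cdkn1c, Peg3, Mest and Dlk1, the last at 0.194 ± 0.0258. No neighbours in this order overlapped between libraries. After coculture Grb10 was again first at 40 ± 1.68 CPM per kilobase and Dlk1 last at 0.0767 ± 0.0178. Rian (22.1 ± 0.933) and Meg3 (20.6 ± 0.9) then overlapped each other. H19, in 5th place among the lone libraries at 13.4 ± 0.31 CPM per kilobase, stood at 1.49 ± 0.393, where it overlapped Cdkn1c (1.68 ± 0.272) and Plagl1 (1.33 ± 0.0391). Peg3 moved from 1.95 ± 0.859 to 3.74 ± 0.0958 and lay above all 3. The place of Ndn in both orders depends on the length used, as does the order of Meg3 and Rian in the lone libraries. The annotated exons of Ndn span 3.69 kb, while its deposited FPKM implies 1.65 kb. By mean FPKM, Ndn stood at 38.4 alone, above Rian (20.1) and Meg3 (19.3) and below Grb10 (58.9). After coculture it stood at 37.3, beside 36.8 for Grb10.

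The maternally expressed noncoding RNAs were H19, Meg3 and Rian. H19 (ENSMUSG00000000031, chr7:142575529-142578143, - strand), whose exon holds the miR-675 hairpin shown above, showed a marked decrease. It had 414, 426 and 391 counts alone and 64, 37 and 44 with Th17 cells. Every cocultured library lay far below every lone library. The level fell from 32.9 ± 0.767 to 3.67 ± 0.967 CPM (SD, n = 3 each), or 8.98-fold, at a log2 change of −3.16 ± 0.163 (SE; adjusted p = 7.79e-07, edgeR). Small noncoding genes share some of its exon bases, and strand use in counting was not stated.

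Meg3 (ENSMUSG00000021268, chr12:109541001-109571726, + strand), the long noncoding RNA of the Dlk1-Dio3 domain, changed much less. It had 6593, 6244 and 5907 counts alone and 4855, 4982 and 4801 with Th17 cells. The groups did not overlap, and the spread within each was small. Its level fell from 501 ± 9.38 to 372 ± 16.4 CPM (SD, n = 3 each), a log2 change of −0.43 ± 0.0562 (SE; adjusted p = 0.000345, edgeR). Gm26906 lies antisense across 1228 of its exon bases and had 0 counts in all libraries.

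Rian (ENSMUSG00000097451, chr12:109603940-109661716, + strand), which hosts small nucleolar RNAs and microRNAs, begins 32.2 kb after the end of Meg3. It had 6279, 5900 and 5391 counts alone and 5258, 5050 and 5562 with Th17 cells. The raw counts overlapped, but the TMM-scaled levels did not, at 487, 466 and 456 CPM alone and 391, 397 and 423 CPM after coculture. Its log2 change was −0.22 ± 0.058 (SE; adjusted p = 0.0159, edgeR). This call was lost with library size as the only scaling (adjusted p = 0.0608), with limma on log2(FPKM + 1) (0.0803), and without lone replicate 1 (0.0688), lone replicate 2 (0.0579) or cocultured replicate 1 (0.0524).

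The remaining maternally expressed genes encode brakes on growth. Grb10 (ENSMUSG00000020176, chr11:11930508-12038683, - strand) encodes an adaptor that binds activated insulin and IGF receptors and dampens their signal, and is expressed from the maternal copy in most tissues outside the brain. It had 7995, 7665 and 7072 counts alone and 4940, 4795 and 4567 with Th17 cells. All cocultured libraries lay below all lone libraries. The level fell from 608 ± 11.5 to 364 ± 14.9 CPM (SD, n = 3 each), a log2 change of −0.74 ± 0.0555 (SE; adjusted p = 9.15e-06, edgeR). The interval of this log2 change was −0.87 to −0.62.

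Cdkn1c (ENSMUSG00000037664, chr7:143458350-143461050, - strand) encodes an inhibitor of cyclin-dependent kinases that holds cells out of the cycle. It had 78, 76 and 62 counts alone and 38, 50 and 46 with Th17 cells. Even the lowest lone library was above the highest cocultured one. Its log2 change was −0.76 ± 0.186 (SE; adjusted p = 0.0113, edgeR), from 5.77 ± 0.455 to 3.42 ± 0.556 CPM (SD, n = 3 each). An antisense gene overlaps 625 of its exon bases and was not analysed here.

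Among the paternally expressed genes, Plagl1 and Dlk1 fell and Peg3 rose. Plagl1 (ENSMUSG00000019817, chr10:13060504-13131694, + strand) encodes a zinc finger transcription factor that restrains proliferation and is known to act on other imprinted genes. It had 623, 474 and 427 counts alone and 139, 129 and 141 with Th17 cells. Replicate 1 stood above the other lone libraries, and the cocultured libraries were close together. The level was 3.91-fold lower, from 40.6 ± 6.72 to 10.4 ± 0.302 CPM (SD, n = 3 each), a log2 change of −1.97 ± 0.131 (SE; adjusted p = 4.13e-06, edgeR).

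Dlk1 (ENSMUSG00000040856, chr12:109452823-109463336, + strand), a transmembrane protein that restrains the formation of fat cells and marks immature stromal cells, was close to the limit of detection. It had 16, 12 and 13 counts alone and 5, 7 and 5 with Th17 cells. The groups did not overlap, and the lowest value was above the floor of 3 counts. The log2 change was −1.32 ± 0.371 (SE; adjusted p = 0.0206, edgeR). It was no longer called in 8 of 13 alternative settings, with an adjusted p of 0.141 in DESeq2, 0.0728 without lone replicate 1, 0.0655 without lone replicate 3, 0.0662 without cocultured replicate 1 and 0.0547 without cocultured replicate 3.

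Peg3 (ENSMUSG00000002265, chr7:6703892-6730421, - strand), a zinc finger protein of the chromosome 7 cluster whose interval to Usp29 is printed above, was the one gene that rose. It had 413, 420 and 152 counts alone and 689, 620 and 651 with Th17 cells. The cocultured libraries were tight and above all lone ones, and lone replicate 3 stood far below its partners. In CPM the lone values were 32, 33.2 and 12.8 and the cocultured values 51.2, 48.7 and 49.5, with a log2 fold change of 0.93 (SE 0.278, interval 0.30 to 1.56, edgeR adjusted p = 0.0268). Without lone replicate 3 the log2 change was 0.61 ± 0.0931 (SE; adjusted p = 0.00166, edgeR). The call was lost in DESeq2 (adjusted p = 0.0694) and without cocultured replicate 1 (0.065), 2 (0.0624) or 3 (0.0521). A drop of more than 2-fold below both partners was not common in lone replicate 3, where it occurred in 17 of 9740 genes with at least 100 counts on average (0.175%), against 21 to 30 genes in the other libraries.

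For Mest and Ndn no difference passed the test. Mest (ENSMUSG00000051855, chr6:30723547-30748465, + strand), an enzyme of the alpha/beta hydrolase fold tied to growth of fat tissue, had 26, 37 and 21 counts alone and 30, 16 and 20 with Th17 cells. The groups overlapped, and the interval of the log2 fold change ran from −1.13 to 0.29 around −0.42 (edgeR adjusted p = 0.332), so a 2-fold fall was not excluded at these counts. Copg2 lies antisense to Mest and shares 912 exon bases with it. Ndn (ENSMUSG00000033585, chr7:62348277-62349928, + strand), the growth suppressor necdin of the MAGE family, had 802, 790 and 826 counts alone and 801, 777 and 791 with Th17 cells. Its CPM values, 62.2 to 69.8 alone and 59.6 to 61 after coculture, did not overlap, as was the case for 50.4% of all genes tested. The log2 fold change was −0.11, with an interval of −0.27 to 0.06 (edgeR adjusted p = 0.299).

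**Figure D2:**
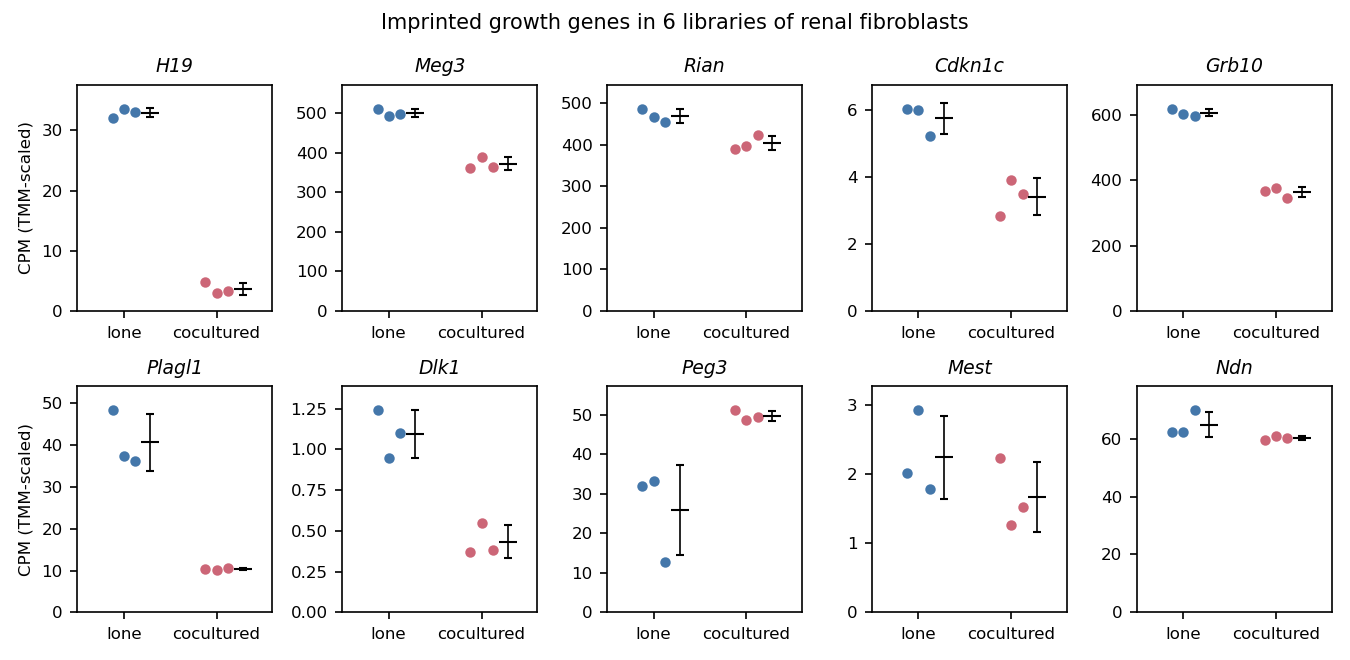
TMM-scaled CPM (vertical axes, each from 0) of the 10 genes in lone and cocultured fibroblasts. Points are libraries, and bars give the mean and SD of 3. H19, Meg3, Rian, Cdkn1c, Grb10, Plagl1 and Dlk1 are lower in every cocultured library. Peg3 is higher in each, with lone replicate 3 at 12.8 CPM. The groups overlap for Mest. They do not overlap for Ndn, which was not called, nor for 50.4% of all genes tested.

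The neighbours of these genes in their domains were examined next. In the Dlk1-Dio3 domain on chromosome 12, 5 tested genes were called lower, among them Dlk1, which passed the filter on low counts through the lone group alone and so could enter only as a lower gene. By edgeR, 20.0% of all genes tested were lower. DESeq2 called 4 of the 5 domain genes and limma on log2(FPKM + 1) called 3. Besides Dlk1, Meg3 and Rian the genes were Dio3, which inactivates thyroid hormone, and Mirg, a noncoding host of microRNAs that begins 68 kb after Rian. Dio3 fell from 4.14 ± 0.152 to 1.51 ± 0.504 CPM (SD, n = 3 each), a log2 change of −1.46 ± 0.264 (SE; adjusted p = 0.00227, edgeR). The log2 fold change of Mirg was −0.56 (SE 0.149, edgeR adjusted p = 0.0165). Rtl1 had 0 counts in all libraries. Without lone replicate 1, 3 of the 5 genes were called, and without cocultured replicate 1, 2 were called, Mirg then having an adjusted p of 0.0523.

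In the Igf2-H19 and Kcnq1 domains on chromosome 7, 3 of 9 tested genes were lower and 2 higher. Over all genes tested the shares were 20.0% lower and 17.1% higher. Igf2, the paternally expressed growth factor that lies 72.6 kb from H19, fell beside it. It had 260, 293 and 223 counts alone and 51, 49 and 57 with Th17 cells, with every cocultured library below every lone one. The log2 change was −2.37 ± 0.138 (SE; adjusted p = 1.64e-06, edgeR). Cdkn1c, 792 kb further on, was the other lower gene. Cd81, a membrane protein of the tetraspanin family, rose from 361 ± 6.46 to 492 ± 26.5 CPM (SD, n = 3 each), a log2 change of 0.45 (adjusted p = 0.000347, edgeR), and Tssc4 had a log2 fold change of 0.58 (edgeR adjusted p = 0.0252). Without lone replicate 1, lone replicate 2 or cocultured replicate 2, the adjusted p of Tssc4 was 0.0929, 0.0612 and 0.0818. Kcnq1ot1, the noncoding RNA that silences genes around Cdkn1c on the paternal copy, had 100, 46 and 39 counts alone and 73, 58 and 110 counts after coculture and was not called (edgeR adjusted p = 0.52).

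In the Ndn domain 2 of 6 tested genes rose while Ndn itself was not called. For all genes tested the share called higher was 17.1%. Snrpn, which encodes a splicing protein, rose from 11.3 ± 0.541 to 17.7 ± 1.9 CPM (SD, n = 3 each), a log2 change of 0.65 ± 0.12 (SE; adjusted p = 0.00255, edgeR). Peg12 had a log2 change of 0.59 ± 0.184 (SE; adjusted p = 0.0328, edgeR). Its call was lost in DESeq2 (adjusted p = 0.0762) and without lone replicate 1 (0.109), lone replicate 2 (0.0774), cocultured replicate 2 (0.0988) or cocultured replicate 3 (0.0635), which left 1 of the 6 tested genes called in each case. Snhg14 did not pass (log2 fold change 0.50, edgeR adjusted p = 0.0656), nor did Mkrn3 or Ube3a. Magel2 had 0 counts in all libraries. Snurf, listed beside Snrpn and part of the same transcript, had 1 count in each library.

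The smaller domains gave few tested genes. In the Peg3 domain Zim1 had 79, 66 and 75 counts alone and 92, 85 and 91 with Th17 cells and was not called (log2 fold change 0.21, edgeR adjusted p = 0.303). Zim1 was not low in lone replicate 3, at 6.34 CPM the highest of the lone libraries. Usp29, which starts 146 bases from Peg3 in the opposite direction, had 2, 3 and 3 counts alone and 7, 0 and 3 with Th17 cells and was not tested. Beside Grb10, Ddc, an enzyme that makes dopamine and serotonin, had 31, 21 and 16 counts alone and 1, 3 and 1 with Th17 cells (edgeR adjusted p = 0.000479). Like Dlk1, Ddc passed the filter on low counts through the lone group alone and so could enter only as a lower gene. Its fitted fold change rests on those few cocultured counts. Cobl did not pass. Beside Plagl1, Phactr2 did not pass (log2 fold change −0.37, edgeR adjusted p = 0.275). Copg2, antisense to Mest, had a log2 fold change of 0.34 (edgeR adjusted p = 0.0175). This call was lost without lone replicate 3 (adjusted p = 0.0602) and without cocultured replicate 1 (0.058) or 2 (0.0544).

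**Figure D3:**
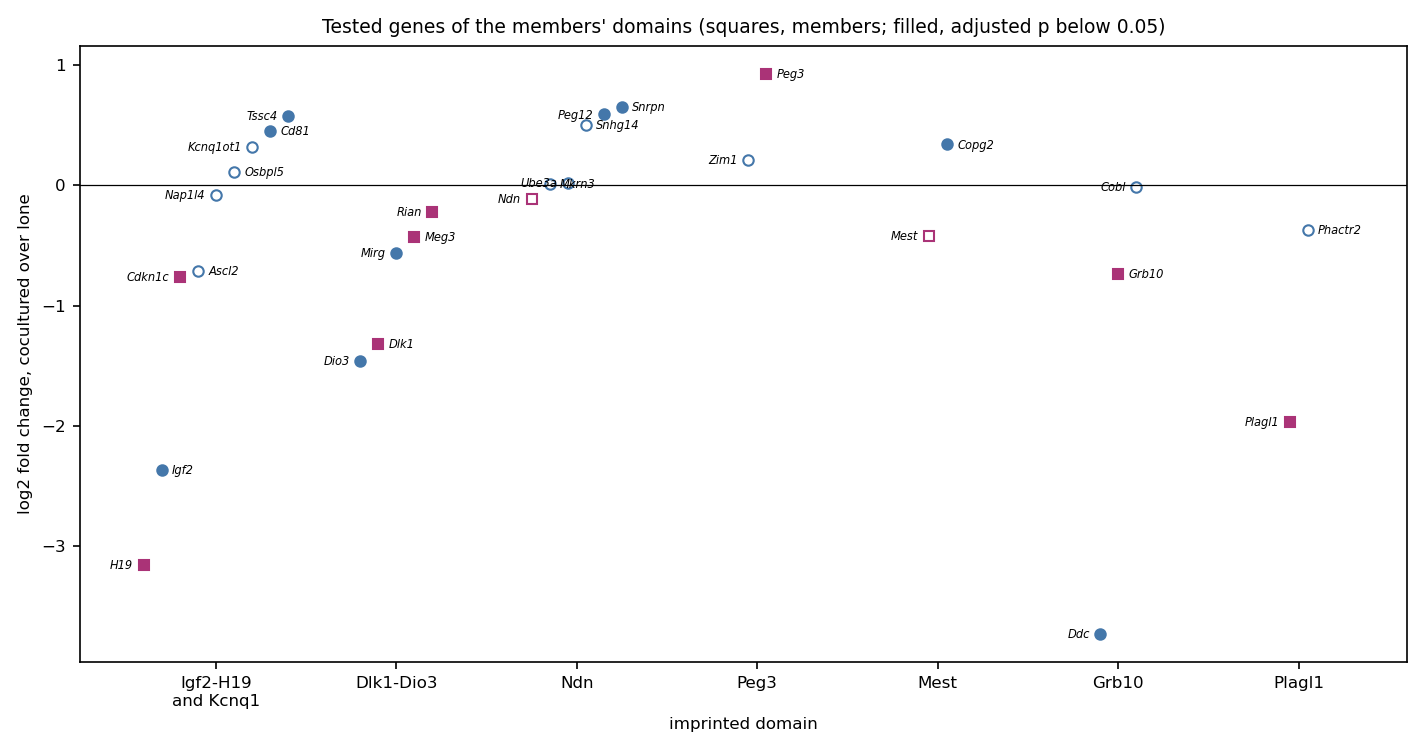
Log2 fold change, cocultured over lone (vertical axis), of the tested genes of each imprinted domain (horizontal axis). Squares are the genes described here, circles their neighbours, and filled symbols have an adjusted p below 0.05. In the Igf2-H19 and Kcnq1 domains H19 (−3.16) and Igf2 (−2.37) lie below Cd81 (0.45) and Tssc4 (0.58).

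Ratios within a domain compare genes in the same library and need no scaling. The log2 ratio of Rian to Meg3 was −0.09 ± 0.0327 in lone fibroblasts and 0.12 ± 0.0964 after coculture (SD, n = 3 each), a difference of 0.21. For Dlk1 to Meg3 it went from −8.85 ± 0.169 to −9.77 ± 0.254, a difference of −0.92, or −0.35 when 0.5 CPM was added to each level. For H19 to Igf2 it went from 0.67 ± 0.135 to −0.15 ± 0.414, a difference of −0.82. The groups did not overlap for any of the 3 ratios, and the exact two-sided permutation test gave p = 0.1 for each, the smallest that 3 libraries against 3 allow, and 0.1 after adjustment over the 3. Cocultured replicate 1, with a log2 ratio of H19 to Igf2 of 0.33, lay nearest to the lone libraries.

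**Figure D4:**
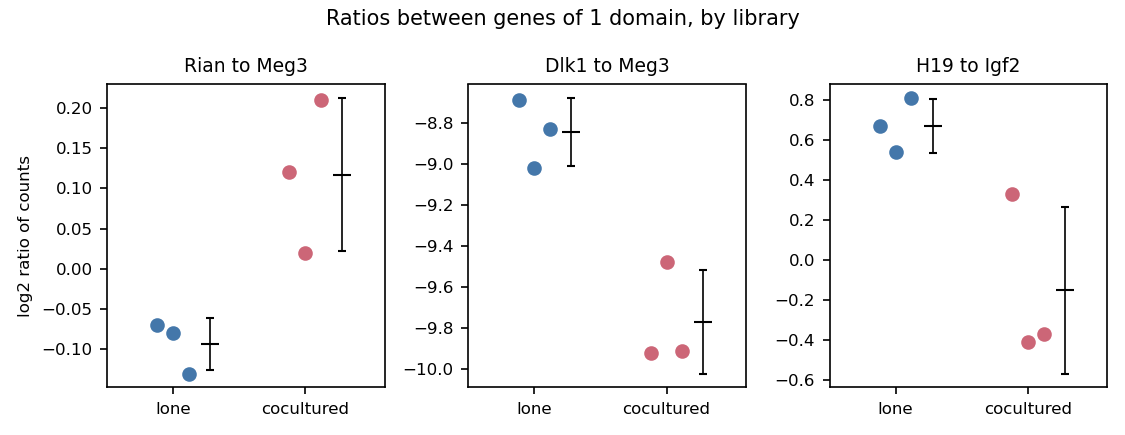
Log2 ratio of counts (vertical axes) for 3 pairs of genes of the same domain, by library. Points are libraries and bars the mean and SD of 3. Rian rose relative to Meg3 by 0.21, and Dlk1 relative to Meg3 and H19 relative to Igf2 fell by 0.92 and 0.82, with no overlap between groups.

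The other imprinted genes had a median near that of all genes. Of 48 further imprinted genes listed, 32 were tested, 8 were higher and 5 lower, and their median log2 fold change was 0.09. The share called, 40.6%, was near the 37.1% of all genes tested (17.1% higher and 20.0% lower). Among those listed as expressed from the paternal copy, 4 of 18 tested were higher and 4 lower, with a median of 0.10. Slc38a4, an amino acid transporter important in the placenta, fell furthest, from 39.3 ± 1.43 to 3.79 ± 0.222 CPM (SD, n = 3 each), a log2 change of −3.37 ± 0.108 (SE; adjusted p = 5.25e-08, edgeR). Igf2 and Dio3, given above, and Sgce, a sarcoglycan of the muscle membrane complex (log2 fold change −0.57, edgeR adjusted p = 0.000478), were the others that fell. Impact, which dampens a stress-activated brake on translation, rose from 103 ± 4.46 to 207 ± 13.1 CPM (SD, n = 3 each), a log2 change of 1.01 ± 0.0699 (SE; adjusted p = 5.19e-06, edgeR). Snrpn, Peg12 and Peg13 (log2 fold change 0.44, edgeR adjusted p = 0.0228) were the others that rose. The call for Peg13 was lost without lone replicate 1 (adjusted p = 0.073), lone replicate 3 (0.0757), cocultured replicate 1 (0.0753) or cocultured replicate 2 (0.0675). The count of paternally expressed genes called higher was 2 without lone replicate 1 or cocultured replicate 2.

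Among those listed as expressed from the maternal copy, 4 of 14 tested were higher and 1 lower, with a median of 0.08. Of all genes tested, 17.1% were higher and 20.0% lower. The copy expressed in these cells was not measured. The higher ones were Tssc4, Cd81, Copg2 and Trappc9 (log2 fold change 0.31, edgeR adjusted p = 0.0281), and the lower one was Mirg. Trappc9 had an adjusted p of 0.0698 in DESeq2 and between 0.0641 and 0.085 without any one of the lone libraries or cocultured replicates 1 and 2, and of 0.0503 with a replicate block. The count of higher calls was 2 without any one of the lone libraries or cocultured replicate 1, and 1 without cocultured replicate 2. The count of lower calls fell to 0 when cocultured replicate 1 was left out and was 2 when cocultured replicate 2 was. Igf2r, the receptor that clears IGF2, did not pass (log2 fold change −0.16, edgeR adjusted p = 0.0867).

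**Figure D5:**
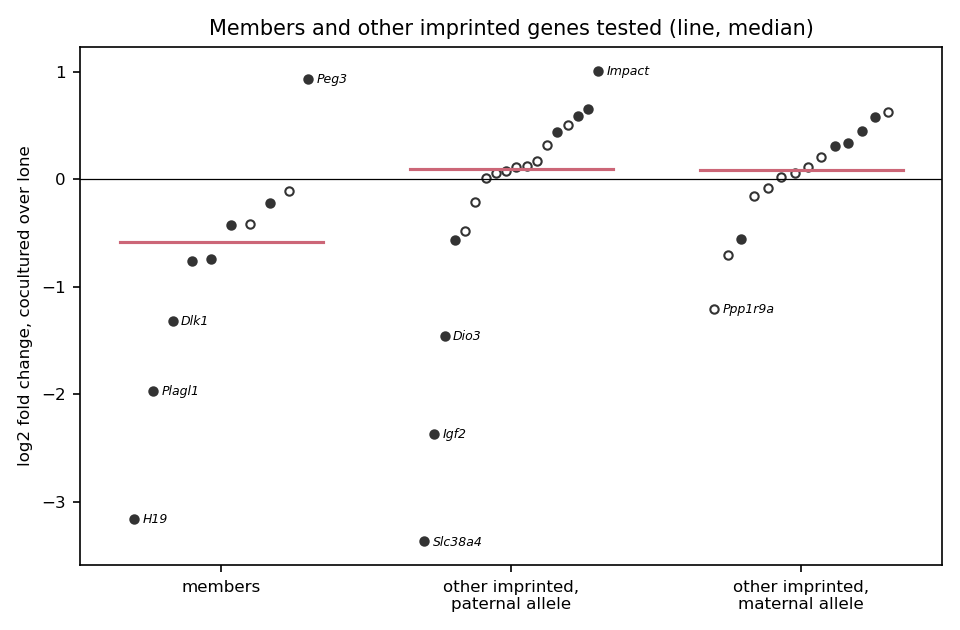
Log2 fold change, cocultured over lone (vertical axis), of the 10 genes described here and of the other imprinted genes tested, by the expressed allele. Each point is a gene, filled where the adjusted p is below 0.05, and lines are medians. The medians are −0.58, 0.10 and 0.08.

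Several genes of imprint maintenance and DNA methylation were lower as well. Of 15 tested, 7 were lower, where 20.0% of all genes tested were lower. The other 8 were not called, and edgeR called none higher (1 at an unadjusted p under 0.05). Those not called were Dnmt3a, Dnmt3b, Dnmt3l, Zfp445, Trim28, Ctcf, Kdm1b and Smchd1. Library size as the only scaling, limma on log2(FPKM + 1), and the fit without cocultured replicate 3 each called 1 higher, and DESeq2 called 0. Dnmt1, which copies methylation at replication, fell from 128 ± 5.45 to 91 ± 6.99 CPM (SD, n = 3 each), a log2 change of −0.49 (adjusted p = 0.00082, edgeR). Its partner Uhrf1 had a log2 fold change of −0.67 (edgeR adjusted p = 0.000144). For Zfp57, which protects imprints in the early embryo, it was −0.71 (edgeR adjusted p = 0.000983). The Tet genes, which oxidise methylated cytosine, were lower by log2 values of −1.08 for Tet1, −0.76 for Tet2 and −0.63 for Tet3 (edgeR adjusted p = 0.00382, 0.002 and 0.00355), the first not called by limma (adjusted p = 0.0668). Hells was at −0.41 (edgeR adjusted p = 0.0194), and its adjusted p was 0.0846, 0.055, 0.0664 and 0.0665 without lone replicate 1, lone replicate 2, cocultured replicate 1 and cocultured replicate 2.

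Grb10 acts on insulin and IGF receptors, and of 7 genes of that pathway 4 were higher and 2 lower. Of all genes tested, 17.1% were higher and 20.0% lower. Irs2 and Irs1, the adaptors that carry the signal, had log2 fold changes of 0.79 and 0.55 (edgeR adjusted p = 0.000601 and 0.00116). The receptors Insr and Igf1r had log2 fold changes of 0.45 and 0.30 (edgeR adjusted p = 0.00208 and 0.00963). The ligand Igf1 fell from 14.6 ± 1.95 to 4.1 ± 0.456 CPM (SD, n = 3 each), a log2 change of −1.83 (adjusted p = 2.59e-05, edgeR), as did Igf2. Insr, Igf1r and both adaptors were higher, both ligands and Grb10 were lower, and Igf2r was not called (log2 fold change −0.16, edgeR adjusted p = 0.0867).

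Cdkn1c is 1 of 7 CDK inhibitors examined, of which 5 were lower and 1 higher. The shares of all genes tested were 20.0% lower and 17.1% higher. Cdkn2c fell from 19 ± 2.22 to 7.59 ± 0.995 CPM (SD, n = 3 each), a log2 change of −1.33 (adjusted p = 0.000108, edgeR). The log2 fold change was −0.90 for Cdkn1b and −0.75 for Cdkn2b (edgeR adjusted p = 0.000819 and 0.000855). Cdkn2d had −0.57 (edgeR adjusted p = 0.0207), with an adjusted p of 0.0689, 0.0742, 0.0636 and 0.0709 without lone replicate 2, lone replicate 3, cocultured replicate 1 and cocultured replicate 2. Cdkn1a, a target of the tumour suppressor p53, was higher by 0.16 on the log2 scale (edgeR adjusted p = 0.0355), and without any one of the lone libraries or cocultured replicates 1 and 2 its adjusted p lay between 0.0592 and 0.12.

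The genes whose pattern over the 6 libraries was most like that of H19 were Ifit1, Oas2 and Nmi, all interferon-induced. Pearson's r of log2 CPM was 0.9995, 0.9993 and 0.9993, with log2 fold changes of −1.69, −2.97 and −2.06. This describes the difference between groups more than the libraries within them, since the 6 libraries form 2 groups and 1499 of 9739 genes compared had an r above 0.9.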

How the data were processed

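RNA was measured in 3 libraries of renal fibroblasts cultured alone and 3 of fibroblasts cocultured with Th17 cells. Reads were filtered with Seqtk, aligned to mm10 with HISAT2 2.0.4 and counted per gene with StringTie 1.3.3b by the authors, as the methods and the submitters' processing notes say. The authors deposited raw fragment counts and, beside them, FPKM values per gene and library. Use of strand and of fragments that fit several genes was not stated, so overlapping genes are uncertain. Groups were taken from sample titles and columns from their descriptions. Of the gene identifiers, 34267 occur in GENCODE M21 for GRCm38, and 99.9% of these overlap their annotated position.

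Differences were tested with edgeR 4.0.16 under R 4.3.3, using filterByExpr (minimum count 10), TMM factors, glmQLFit and glmQLFTest, with Benjamini-Hochberg adjustment over all 13088 genes tested. A gene was called at an adjusted p below 0.05, and the study's further limit of a 2-fold change is given beside the first counts. Levels per kilobase use union exon lengths, because the lengths that the deposited FPKM values imply were within 5% of these for only 14.9% of genes. Tests were checked on simulated data. Alternatives were DESeq2 1.42.0, relative log expression or upper quartile factors, library size only, 2 other filters on low counts, leaving out each library, a replicate block and limma 3.58.1 on log2(FPKM + 1). The pseudocount makes that scale understate changes of low genes. Floors cover counting error only.

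The 10 genes and all gene lists were chosen with earlier results of these data known. Named genes are the 10, list members that passed, genes of their domains, and the 3 genes most like H19 in pattern. Marker lists held 12 fibroblast, 10 T cell, 8 macrophage, 6 epithelial and 4 endothelial genes. Sequences were matched in Python 3.11.15 with pandas 2.3.3. Plots were made with matplotlib 3.10.9.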

Additional observations from a re-analysis of the deposited data

How the results depend on the processing

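No result that was followed changed direction under any alternative run, but markers and the genes most like H19 were not followed. The calls for H19, Meg3, Grb10, Plagl1 and Cdkn1c held under all 14 settings, and Mest and Ndn passed under none. Of the 10 genes, the count called higher was 0 with DESeq2 and 0 with the 2-fold limit, and 0 to 1 when single libraries were left out. The count called lower was 3 with the 2-fold limit and 5 to 7 when single libraries were left out. Their median log2 fold change was −0.52 with library size only, −0.42 with at least 10 counts in every library (a setting in which Dlk1 has no value), −0.25 with limma on log2(FPKM + 1), and −0.66 to −0.56 when single libraries were left out. Limma called 3 genes of the Dlk1-Dio3 domain lower and 1 gene of imprint maintenance higher, and library size only called 1 of the latter higher. DESeq2 called 1 gene of the Ndn domain higher. With no filter on low counts, 1 close relative of the 10 genes and 0 CDK inhibitors were called higher. When single libraries were left out, the counts called higher were 2 to 3 for paternally expressed and 1 to 4 for maternally expressed genes, 1 to 2 for the Ndn domain, 0 to 1 for imprint maintenance, 1 to 2 for relatives and 0 to 1 for CDK inhibitors, and the counts called lower were 0 to 2 for maternally expressed genes and 2 to 5 for the Dlk1-Dio3 domain. The causes were not tested.

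Replicate numbers did not pair the samples: deviations from the group means correlated at 0.0157, −0.0256 and −0.0036 for replicates 1, 2 and 3. With a replicate block, 4513 genes were called in place of 4856, 6 of the 10 genes were lower (Dlk1 at an adjusted p of 0.0518) and 1 higher, 1 relative and 0 CDK inhibitors were higher (Cdkn1a at 0.0691), and 3 maternally expressed genes were higher (Trappc9 at 0.0503). Of the 10 genes and the listed genes named, markers aside, no other lost its call under the block. Depth limits Dlk1 and Mest, whose libraries held at most 37 counts.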

Other observations

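Close relatives of the 10 genes, which are not imprinted apart from Magel2, moved in both directions. Of 10 listed, 7 were tested, 3 were lower and 2 higher, with a median log2 fold change of −0.21. Among all genes tested, 20.0% were lower and 17.1% higher. Grb14, an adaptor of the Grb10 family, rose while Grb10 fell. Its level was 14.8 ± 0.893 CPM in lone fibroblasts and 25.6 ± 3.96 CPM after coculture (SD, n = 3 each), a log2 change of 0.79 ± 0.132 (SE; adjusted p = 0.0014, edgeR), higher in 3 of 3 cocultured libraries. Maged1 and Maged2, MAGE proteins like necdin, fell with log2 fold changes of −0.48 and −0.68 (edgeR adjusted p = 0.000902 and 0.000194), where Ndn was not called. Maged1 went from 601 ± 17.5 to 431 ± 41 CPM (SD, n = 3 each). Plag1 and Plagl2, zinc finger relatives of Plagl1, had log2 fold changes of 0.08 and −0.21 and did not pass (edgeR adjusted p = 0.73 and 0.141). Cdkn1b and Cdkn1a, relatives of Cdkn1c, are given among the CDK inhibitors. Differences between relatives were not tested.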
